A study of Mus musculus with 18 samples.

Results

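Loss of Tsc2 in the uterus of ovariectomized mice was set against estradiol given to ovariectomized wild-type mice, to ask which effects of the hormone the loss of the gene mimics. The 6 libraries compared were 3 of the KO ovx group (replicates 1, 2 and 4) and 3 of the WT E2 group (replicates 1, 2 and 5), out of 18 libraries in the series, and the 3 WT ovx libraries (replicates 1, 2 and 3) served as the reference level only. KO ovx mice were uterine-specific Tsc2-null and had their ovaries removed at 4 weeks of age, with no hormone. WT E2 mice were wild-type, lost their ovaries at the same age and then carried a pellet of 0.5 mg 17β-estradiol with a 90-day release for 8 weeks. WT ovx mice were wild-type and ovariectomized with no hormone. All were 12 weeks old, on a mixed 129Sv X C57BL/6 background, and messenger RNA was sequenced from a cross section of the uterus. The promoter that drove the deletion, the part of Tsc2 that it removes and the cells that carry it are not given in the sources used here. Nor do the labels say that each library is a separate animal, so p-values measure the spread between these libraries, which may be technical. Values are FPKM, fragments scaled to transcript length and to the mapped fragments of the library, and differences are on the log2(FPKM + 1) scale, which understates the change of genes with low values. Of 25791 genes in the table, 13898 reached 1 FPKM in at least 3 of the 18 libraries and were tested.

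TSC2, also called tuberin, is the GTPase-activating subunit of the tuberous sclerosis complex, which keeps the small GTPase RHEB inactive and thereby restrains the kinase complex mTORC1. Active mTORC1 promotes protein, lipid and nucleotide synthesis, and it holds the MiT/TFE transcription factors, which switch on lysosomal genes, in the cytoplasm. Folliculin and the RagC and RagD GTPases take part in that control, and in cells without the complex MiT/TFE factors have been found in the nucleus all the same. Estradiol acts through the nuclear receptor ESR1. In the rodent uterus it is known for epithelial growth, for the secretion of lactoferrin, complement C3 and lipocalin, for the small proline-rich proteins of the Sprr2 family, and for the entry of leukocytes.

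The motif TCACGTGA is the core of the CLEAR element bound by MiT/TFE factors and reads the same on both strands. It was looked for in the promoters that RefSeq gives on GRCm38.p6, from 250 bases before to 50 bases after each start site. Of the lysosome list described below, 7 of the 32 genes with a promoter held it (Atp6v0d1, Atp6v0e, Atp6v1a, Ctsa, Ctsd, Gla and Mcoln1), as did 1.12% of all 27025 genes with a promoter (0.974% of 32851 promoters). The lysosome list was written as lysosomal genes and MiT/TFE targets, so its higher share was built in and is no evidence. Among other lists, none of 20 oxidative phosphorylation genes held it and 1 of 36 estrogen-induced genes did (Pigr). Of the 25 genes with a promoter that passed the rule for genes moved the same way by Tsc2 loss and by estradiol, 3 held it (Atp6v0d1, Atp6v0e and Pdzk1ip1), against none of 30 that passed the rule for genes higher in KO ovx than in both other groups. Atp6v0d1 and Atp6v0e are also in the lysosome list, and at 1.12% a list of 30 genes would mostly hold none. The estrogen response element GGTCANNNTGACC was in 0.07% of all promoters on either strand and in none of these lists. At that share lists of this size would mostly hold none, so its absence tells nothing about them. A match is a description of these letters in this window and not a site shown to be bound. Below are 60-base stretches of the promoter of Pdzk1ip1, the first gene that the rule named as higher in both conditions, and of 3 lysosomal genes, with the motif in capitals, written along the gene's own strand. They lie at chr4:115088489-115088548 (plus strand), chr16:44139358-44139417 (minus strand), chr2:164833713-164833772 (plus strand) and chr7:142387893-142387952 (minus strand).
Pdzk1ip1: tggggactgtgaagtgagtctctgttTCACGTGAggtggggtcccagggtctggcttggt
Atp6v1a: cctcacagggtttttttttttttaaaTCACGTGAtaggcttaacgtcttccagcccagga
Ctsa: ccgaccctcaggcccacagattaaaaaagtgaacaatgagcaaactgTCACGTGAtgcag
Ctsd: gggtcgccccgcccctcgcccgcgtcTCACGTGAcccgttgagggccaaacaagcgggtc

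Tsc2 itself stood at 2.98, 3.33 and 2.39 FPKM in KO ovx, at 2.73, 2.38 and 2.66 in WT E2 and at 3.24, 3.49 and 3.17 in WT ovx. KO ovx overlapped both other groups, with an exact two-sided permutation p of 0.3 against WT ovx and 0.4 against WT E2, where 0.1 is the smallest p that 3 against 3 allows. A value over the whole transcript in whole tissue does not check a deletion of part of the gene in some of the cells, so the genotype rests on the labels. KO ovx replicate 4 stood apart from its group: its mean correlation across genes with the other KO ovx libraries was 0.921 against 0.958 and 0.950 for replicates 1 and 2, and with WT E2 it was 0.864 against 0.817 and 0.805. In WT E2 replicate 2, a single locus (LOC236598) took 26.63% of the summed FPKM. Judged by shared steps in the lowest values, all KO ovx libraries, WT ovx replicates 1 and 3 and WT E2 replicate 5 fell into 1 set, and WT ovx replicate 2 with WT E2 replicates 1 and 2 into another. The labels name no batches. This set largely coincides with the comparison, and within it the comparison is 3 KO ovx libraries against WT E2 replicate 5 alone.

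In the direct comparison, 1632 genes were higher in KO ovx than in WT E2, which is 11.7% of those tested, and 2538 were lower, which is 18.3% (limma, adjusted p under 0.05). At 2-fold or more, 672 were higher and 1484 lower. For 51.6% of the genes tested, the 95% interval of the difference lay within 2-fold either way. The median over all genes was -0.13 on the log2 scale. Median-ratio scaling between libraries moved that median by 0.12 and quantile normalization by 0.19, and the share of calls that were higher in KO ovx went from 39.1% to 51.0% and 57.5%. Group lists below are therefore read beside the all-gene median, and their direct counts beside the 11.7% and 18.3% of all genes. The count of higher genes fell to 901 and 941 when KO ovx replicates 1 and 2 were left out in turn and to 971 without WT E2 replicate 2, and that of lower genes to 1389, 1246 and 1555 without KO ovx replicate 1, KO ovx replicate 2 and WT E2 replicate 5. Within the 1 set, 483 were higher and 1674 lower.

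Against the reference, estradiol raised 4484 genes (32.3% of those tested) and lowered 2115 (15.2%), while Tsc2 loss raised 643 (4.63%) and lowered 110 (0.791%). List counts against WT ovx below are read beside these shares. The excess of higher genes depended on the scaling: estradiol raised 3598 and lowered 3469 under median-ratio scaling and 3139 and 4064 under quantile normalization, and Tsc2 loss raised 660 and lowered 368 under the former and 1015 and 963 under the latter. The 2 comparisons share the WT ovx libraries and the direct one shares a group with each, so the counts stand side by side and are not independent. Of the 4484 genes that estradiol raised, 2330 (52.0%) were lower in KO ovx than in WT E2, 2141 (47.7%) were not called in the direct comparison and 13 were higher. Of the same genes, 392 (8.74%) were also called higher in KO ovx than in WT ovx. Of the 2115 that estradiol lowered, 1117 (52.8%) were higher in KO ovx than in WT E2, and 96 (4.54%) were called lower in KO ovx than in WT ovx. The count of 2330 was 1333, 1181 and 1410 without KO ovx replicate 1, KO ovx replicate 2 and WT E2 replicate 5, and that of 1117 was 585, 579 and 613 without KO ovx replicate 1, KO ovx replicate 2 and WT E2 replicate 2. The 392 rested on single libraries: they were 99 and 172 without KO ovx replicates 4 and 1, 45, 155 and 113 without WT ovx replicates 1, 2 and 3, 256 without WT E2 replicate 1 and 43 within the 1 set. The 753 genes called with Tsc2 loss were 312 and 350 without KO ovx replicates 4 and 1 and 149, 309 and 259 without WT ovx replicates 1, 2 and 3. Under median-ratio scaling and quantile normalization, estradiol lowered 3469 and 4064 genes, of which 1862 and 1991 were higher in KO ovx than in WT E2 and 308 and 830 were also lower in KO ovx than in WT ovx. The 96 lower in both were 42 and 40 without KO ovx replicates 1 and 4, 21, 34 and 33 without WT ovx replicates 1, 2 and 3, and 66 without WT E2 replicate 1. In bulk tissue, fewer cells of a type and less RNA per cell cannot be told apart, which holds for every result that follows.

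**Figure D1:**
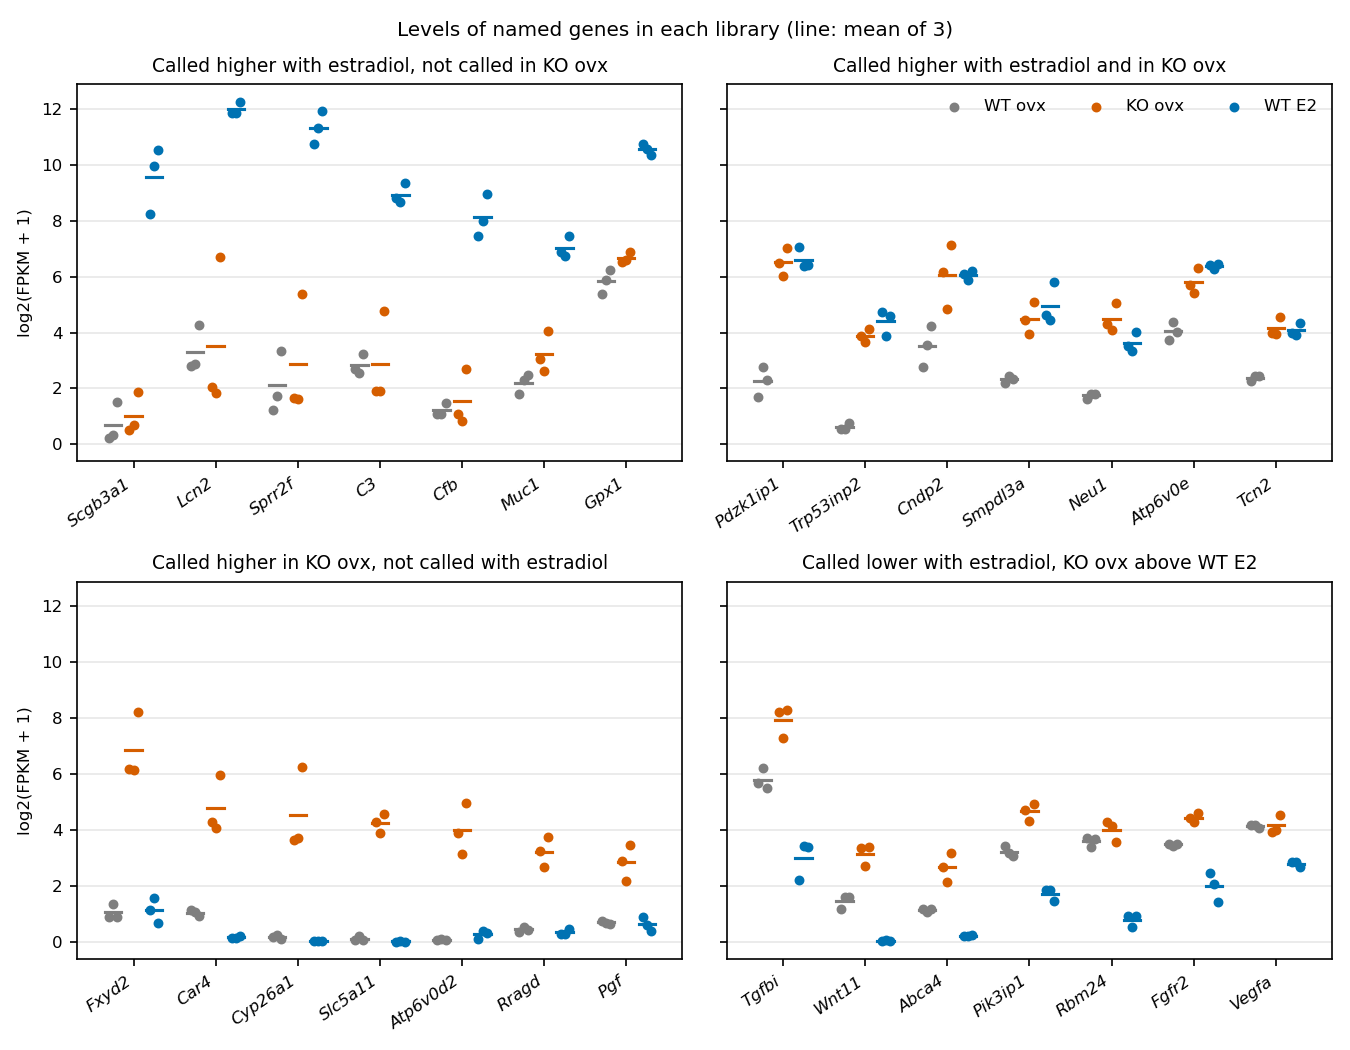
Levels of 28 named genes in each library, as log2(FPKM + 1), for WT ovx, KO ovx and WT E2, with a line at the mean of 3 libraries. The panels hold genes called higher with estradiol but not in KO ovx, genes called higher in both, genes called higher in KO ovx but not with estradiol, and genes called lower with estradiol with KO ovx above WT E2. KO ovx replicate 4, plotted last in its group, is the highest KO ovx point for all 7 genes of the first panel.

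Several secreted and barrier proteins of the estrogen-exposed epithelium were high in WT E2 and near the reference in KO ovx. Scgb3a1, Lcn2 and the Sprr2 genes were named for the largest shortfall of KO ovx, so its size follows from that choice. Others differed: Wfdc2 was at 371, 265 and 578 FPKM in KO ovx, at 156, 94.5 and 128 in WT E2 and at 55.5, 108 and 89.4 in WT ovx. Defb1 and Prap1, given below, also lay above WT ovx in every KO ovx library. Scgb3a1, a small secretoglobin of airway and other epithelia, read 0.417, 0.628 and 2.69 FPKM in KO ovx and 301, 981 and 1470 in WT E2, against 0.174, 0.264 and 1.83 in WT ovx. Every WT E2 library was above every KO ovx library, and KO ovx overlapped WT ovx. The difference was -8.54 ± 0.97 (SE, n = 3 per group, adjusted p = 5.9e-05). Lcn2, the siderophore-binding lipocalin, stood at 3.11, 2.56 and 102 FPKM in KO ovx and at 3660, 3680 and 4900 in WT E2. Replicate 4 was far above the other KO ovx libraries and still below every WT E2 library. The direct difference for Lcn2 was -8.46 ± 1.5 (adjusted p = 0.00138), and that from WT ovx, at 5.93, 6.36 and 18.3 FPKM, was 0.21 ± 1.5 (adjusted p = 0.969).

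The Sprr2 family showed the same pattern, with Sprr2f, a cornified envelope precursor, at 2.14, 2.05 and 40.4 FPKM in KO ovx and at 1710, 2560 and 3870 in WT E2. KO ovx replicate 4 was again the high one, and no KO ovx library approached WT E2. The 7 other members named by the rule (Sprr2a3, Sprr2b, Sprr2d, Sprr2e, Sprr2g, Sprr2h and Sprr2i) were lower by -7.85 to -8.20 on the log2 scale. Their sequences are nearly identical, so reads may have been divided between them and single members are uncertain. Complement C3 read 2.74, 2.78 and 26.4 FPKM in KO ovx, 450, 402 and 646 in WT E2 and 5.44, 4.91 and 8.52 in WT ovx. Only WT E2 stood apart, with a direct difference of -6.07 ± 0.99 (adjusted p = 0.000814). Muc1, the apical mucin of the luminal epithelium, was at 7.21, 5.20 and 15.8 FPKM in KO ovx, between the 2.49 to 4.56 of WT ovx and the 117, 105 and 173 of WT E2. Its direct difference was -3.77 ± 0.89 (adjusted p = 0.0066), and its difference from WT ovx was not called (1.05 ± 0.89, adjusted p = 0.555). Ltf, the lactoferrin gene, cannot be used: it is listed at 0, 2100 and 0 FPKM in WT E2.

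Over the list of estrogen-induced genes, 27 of 43 tested members were lower in KO ovx than in WT E2 and 5 were higher, with a median difference of -2.61 beside -0.13 for all genes. In WT E2, 27 members had risen and 2 fallen against WT ovx, with a median of 2.73, and in KO ovx 3 had risen and none fallen, with a median of 0.31. The 5 were 3 without KO ovx replicate 1 or 4 or WT E2 replicate 2, and the 3 were 0 or 1 without KO ovx replicate 1 or 4 or any 1 of the WT ovx libraries. The list was written with textbook estrogen targets in mind and with earlier results of these data known. Greb1, an ESR1 cofactor and direct target, was at 0.149, 0.317 and 1.19 FPKM in KO ovx, at 7.83, 4.75 and 10.5 in WT E2 and at 0.980, 0.982 and 0.997 in WT ovx. WT E2 lay above both other groups, and the direct difference was -2.49 ± 0.36 (adjusted p = 0.000321). Padi2, which converts arginine to citrulline in proteins, read 0.757, 1.00 and 7.66 FPKM in KO ovx and 147, 113 and 241 in WT E2. Pgr, the progesterone receptor, was at 5.27, 3.95 and 2.74 FPKM in KO ovx and at 11, 6.83 and 24.3 in WT E2. Its difference of -1.45 ± 0.41 (adjusted p = 0.0162) lost its call without KO ovx replicate 2 or WT E2 replicate 5 (adjusted p up to 0.0785).

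The 5 list members that were higher in KO ovx than in WT E2 (Ckb, Vegfa, Tgfa, Wfdc2 and Ihh) were not called higher with this long estradiol exposure. Ckb, the brain-type creatine kinase known as the estrogen-induced protein of the rat uterus, was at 258, 241 and 402 FPKM in KO ovx, at 64.2, 63.7 and 16.5 in WT E2 and at 65.8, 81.0 and 73.3 in WT ovx. KO ovx stood above both, by 2.81 ± 0.53 over WT E2 (adjusted p = 0.00194) and by 1.99 ± 0.53 over WT ovx (adjusted p = 0.042). The latter call was lost in each of the 6 fits that left out 1 KO ovx or WT ovx library (adjusted p up to 0.16). Vegfa, the vascular growth factor, read 14.3, 15.1 and 22.4 FPKM in KO ovx and 6.22, 6.23 and 5.45 in WT E2. At 16.9, 17.1 and 15.6 FPKM, WT ovx lay within the range of KO ovx, so that estradiol lowered the gene (-1.33 ± 0.32, adjusted p = 0.00377) and KO ovx was not called different from WT ovx (0.03 ± 0.32, adjusted p = 0.981).

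Epithelial defense genes moved like the estrogen list, with which they share Lcn2, Muc1, C3, Cfb, Wfdc2 and other members. These lists are thus not independent. Of 24 defense genes tested, 14 were lower in KO ovx than in WT E2 and Wfdc2 alone was higher. Their median was -3.61, and 18 had risen with estradiol. Defb1 rose in both conditions. It encodes an antimicrobial β-defensin and was at 9.92, 11.1 and 25.2 FPKM in KO ovx, at 2.40, 8.52 and 29.9 in WT E2 and at 0.00806, 0.0205 and 0.0521 in WT ovx. Both groups were clear of WT ovx and overlapped each other, with a direct difference of 0.60 and a 95% interval from -0.97 to 2.17. In the squamous list, 13 of 17 members were lower in KO ovx, among them Sprr1b (-4.49 ± 0.73, adjusted p = 0.000808) and the keratin Krt5 (-2.46 ± 0.69, adjusted p = 0.0162). That count fell to 2 without KO ovx replicate 1 or 2, to 3 without WT E2 replicate 5 and to 6 without WT E2 replicate 1, and Krt5 lost its call in the first 3 of these fits (adjusted p up to 0.0731).

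Complement and chemokine genes, with C3, Cfb and C4b also in the defense list, were called in 1 direction. Of 31 tested, 21 were lower in KO ovx than in WT E2 and none was higher (median -2.09, 13 lower within the 1 set), 20 had risen and 2 fallen with estradiol, and 2 had risen and 1 fallen in KO ovx against WT ovx. Cfb, complement factor B of the alternative pathway, read 1.11, 0.794 and 5.43 FPKM in KO ovx and 174, 252 and 495 in WT E2, a difference of -6.59 ± 0.76 (adjusted p = 6.7e-05). WT ovx, at 1.14, 1.13 and 1.79 FPKM, lay within the KO ovx range. The 2 that rose with Tsc2 loss were C2, which forms the classical convertase, and Cd55, which breaks that convertase down. C2 stood at 7.62, 5.21 and 10 FPKM in KO ovx, at 6.17, 20.5 and 22.6 in WT E2 and at 0.672, 0.880 and 1.24 in WT ovx, and its call against WT ovx was lost without KO ovx replicate 4 or WT ovx replicate 1 (adjusted p up to 0.0789). The Cd55 call was lost in 5 of 6 such fits (adjusted p up to 0.161).

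Macrophage markers were higher in WT E2 beside these genes. The 11 macrophage markers summed to 17.9 to 22.6 FPKM in KO ovx, 117 to 230 in WT E2 and 25.6 to 40.1 in WT ovx, and 8 of 10 tested were lower in KO ovx than in WT E2, or 5 without WT E2 replicate 2. Itgam, the CD11b integrin subunit, was at 0.182, 0.197 and 1.33 FPKM in KO ovx and at 26.4, 15.6 and 33.0 in WT E2 (-4.07 ± 0.67, adjusted p = 0.000833). Emr1, Cd163, Mrc1 and Fcgr1 were under 1 FPKM in each KO ovx library. So were Emr1, Cd163, Itgam and Fcgr1 in each WT ovx library, and Cd163 in each WT E2 library. Leaving out Ltf, a choice made after its values were seen, the 11 other neutrophil markers summed to 25.7 and 21.4 FPKM in KO ovx replicates 1 and 2, to 239 in replicate 4 and to 186, 496 and 727 in WT E2. Of the 12 neutrophil markers, 3 were lower in KO ovx than in WT E2, a share near the 18.3% of all genes, and of 8 lymphocyte markers tested none was called. S100a9, a calprotectin subunit of neutrophils, made up 87.4 FPKM of that sum in replicate 4. Their part in the complement and chemokine result was not tested.

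Interferon-response genes rose with estradiol in 16 of 18 cases, beside 32.3% of all genes, with a median of 2.16 beside 0.24 for all genes. In KO ovx 1 rose, near the 4.63% of all genes, while the median was 0.92 beside 0.09 for all genes. In the direct comparison 6 were lower and none higher, a count that was 3 without KO ovx replicate 4, 2 without KO ovx replicate 2, 1 without WT E2 replicate 5 and 10 without WT E2 replicate 1. Bst2, or tetherin, a membrane anchor that holds budding virus, was at 30.4, 17.4 and 12.2 FPKM in KO ovx and at 116, 273 and 170 in WT E2. The groups did not overlap, and the difference was -3.16 ± 0.42 (adjusted p = 0.000201). KO ovx overlapped WT ovx, at 13.8, 20.4 and 16 FPKM.

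Glycolysis distinguished the 2 conditions as well. Of 21 tested genes of glycolysis and the hypoxia response, 14 were lower in KO ovx than in WT E2 and Vegfa alone was higher (median -1.58). Estradiol had raised 18 of them, beside 32.3% of all genes. In KO ovx against WT ovx the median was 0.40 beside 0.09 for all genes, and none was called. Of all genes, 4.63% were called higher there and 0.791% lower, so a count of 0 among 21 is near that share. At an adjusted p under 0.05, that count of 0 held in each of the 18 alternative fits. Hk2, the inducible hexokinase, was at 0.474, 0.497 and 1.84 FPKM in KO ovx and at 5.89, 9.98 and 17.3 in WT E2, with WT ovx at 0.395, 0.418 and 0.584. WT E2 alone stood apart, with a direct difference of -2.60 ± 0.51 (adjusted p = 0.00237). Ldha, which makes lactate, read 37.5, 32.2 and 79.7 FPKM in KO ovx, above the 15.9, 29.5 and 25.7 of WT ovx, and 196, 197 and 344 in WT E2. Its rise in KO ovx was not called (0.97 ± 0.46, adjusted p = 0.248) and its direct difference was -2.34 ± 0.46 (adjusted p = 0.00257). The direct count of 14 was 9 without KO ovx replicate 1, 8 without KO ovx replicate 2 and 9 without WT E2 replicate 5.

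By the naming rule 32 genes qualified as higher in both conditions against WT ovx and 3 as lower in both. Pdzk1ip1, a small membrane protein that binds PDZ scaffolds at the apical surface, was at 88.9, 64.1 and 130 FPKM in KO ovx, at 131, 81.6 and 83.7 in WT E2 and at 2.26, 5.76 and 3.88 in WT ovx. KO ovx and WT E2 overlapped, far above WT ovx. It rose by 4.27 ± 0.66 with Tsc2 loss (adjusted p = 0.00184) and by 4.36 ± 0.66 with estradiol (adjusted p = 0.000213), and the 95% interval of the direct difference ran from -1.49 to 1.32. Trp53inp2, which takes part in autophagosome formation, read 13.8, 11.8 and 16.3 FPKM in KO ovx, 25.6, 13.8 and 23.3 in WT E2 and 0.459, 0.476 and 0.706 in WT ovx. Its direct difference was -0.51, with an interval from -1.33 to 0.30. These intervals do not show equal levels, since both hold a 2-fold difference.

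Intervals within 2-fold were reached for 2 of the 10 genes named as higher in both, by the spread that all groups share in the fit. Cndp2, a cytosolic dipeptidase, was at 70.2, 27.6 and 140 FPKM in KO ovx, at 66.8, 58.4 and 72.3 in WT E2 and at 5.84, 10.7 and 17.8 in WT ovx. The KO ovx libraries spread around the WT E2 values, with a direct difference of -0.01 (interval -0.97 to 0.94). This interval does not reflect the wide spread of Cndp2 within KO ovx, from 27.6 to 140 FPKM, so it is no close bound. Tcn2, transcobalamin, the carrier of vitamin B12 in plasma, was at 14.9, 14.5 and 22.6 FPKM in KO ovx, at 15.0, 13.9 and 19.5 in WT E2 and at 3.82, 4.45 and 4.5 in WT ovx. Its direct difference was 0.08, with an interval from -0.47 to 0.63. Smpdl3a, a phosphodiesterase related to acid sphingomyelinase, rose by 2.16 ± 0.40 with Tsc2 loss (adjusted p = 0.00683) and by 2.62 ± 0.40 with estradiol (adjusted p = 0.000217). S100a1, a calcium-binding protein, rose in both and further in KO ovx (65.8, 52.8 and 166 against 45.1, 42.9 and 29.7 FPKM), but that direct difference of 1.09 ± 0.37 (adjusted p = 0.0375) lost its call without KO ovx replicate 1 or 4 or any 1 of the WT E2 libraries (adjusted p up to 0.134).

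Gpx3, the secreted glutathione peroxidase, moved the same way in both and differed in size. It was at 457, 369 and 1600 FPKM in KO ovx, at 22.6, 203 and 127 in WT E2 and at 4.14, 6.50 and 8.31 in WT ovx. All KO ovx libraries lay above all WT E2 libraries, and these above WT ovx. The rise was 6.51 ± 0.72 with Tsc2 loss (adjusted p = 0.000222) and 3.58 ± 0.72 with estradiol (adjusted p = 0.00126), and the direct difference was 2.93 ± 0.72 (adjusted p = 0.00862). Its intracellular relative Gpx1 did the reverse, at 90.2, 95 and 116 FPKM in KO ovx and 1720, 1500 and 1310 in WT E2, a difference of -3.90 ± 0.61 (adjusted p = 0.000614). In WT ovx, Gpx1 read 40.3, 57.4 and 75.3 FPKM, and its difference in KO ovx was not called (0.82 ± 0.61, adjusted p = 0.488). Across the antioxidant list of 24, 9 were lower and 3 higher in KO ovx than in WT E2, with a median of -0.39, which was 0.16 under quantile normalization. The 3 higher are near the 11.7% of all genes, while 18.3% of all genes were lower.

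Only 3 genes qualified as lower in both conditions by the naming rule. Tnni2, a troponin subunit of fast muscle, was at 1.51, 1.99 and 0.998 FPKM in KO ovx, at 2.40, 0.955 and 0.560 in WT E2 and at 12.6, 15.5 and 14.9 in WT ovx. Both groups lay below WT ovx and overlapped each other, with a direct difference of 0.18 (interval -0.49 to 0.84). Meg3, an imprinted long noncoding RNA, was at 0.977, 1.24 and 1.09 FPKM in KO ovx, at 0.575, 0.214 and 0.0463 in WT E2 and at 8.47, 6.10 and 8.19 in WT ovx. Sned1, a matrix protein, stood between: 2.24, 2.59 and 0.782 FPKM in KO ovx, under 0.12 in each WT E2 library and 8.33, 8.77 and 6.71 in WT ovx. Its direct difference of 1.37 ± 0.21 was called (adjusted p = 0.000519).

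Lysosomal genes stood above the reference in both conditions. Of 39 members tested, 21 rose and 2 fell with estradiol (median 1.01), 18 rose and none fell with Tsc2 loss (median 0.97), and in the direct comparison 6 were higher and 3 lower in KO ovx (median 0.06 beside -0.13 for all genes). The 95% interval of the direct difference lay within 2-fold for 17 of the 39, no more than the 51.6% of all genes. The 3 lower genes were 7 when KO ovx replicate 4 was left out, and 1 when KO ovx replicate 1 or 2 or WT E2 replicate 2 or 5 was. After median-ratio scaling the medians were 0.73 with estradiol and 0.82 with Tsc2 loss. After quantile normalization the estradiol median was 0.25, with 13 higher and 4 lower, and that of Tsc2 loss was 0.75. The near equality of the medians was thus lost under quantile normalization. The direct median was 0.20 after median-ratio scaling and 0.47 after quantile normalization, where 16 members were higher in KO ovx and 1 lower. Of the 18 that rose with Tsc2 loss, 9 were called without KO ovx replicate 4, 11 without KO ovx replicate 1, 8, 10 and 10 without WT ovx replicates 1, 2 and 3, and 7 within the 1 set. The members that rose in both numbered 14: 8 subunits of the acid-pumping V-ATPase (Atp6v0d1, Atp6v1a, Atp6v1b2, Atp6v1c1, Atp6v1d, Atp6v1h, Atp6v0e and Atp6ap1), hydrolases (Neu1, Hexa and Ctsb among them) and the membrane proteins Lamp1 and Lamp2.

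Among the V-ATPase subunits, Atp6v1d of the cytosolic sector was at 14.3, 10.2 and 21.3 FPKM in KO ovx, at 11.8, 11.9 and 14.8 in WT E2 and at 2.87, 3.90 and 4.32 in WT ovx. The 2 groups overlapped above WT ovx, and the direct difference was 0.18 (interval -0.31 to 0.67). Atp6v0e of the membrane sector read 51.0, 41.6 and 77.7 FPKM in KO ovx, 83.5, 76.4 and 85.5 in WT E2 and 12.3, 20.0 and 15.1 in WT ovx. It rose in both and its direct difference of -0.56 was not called (adjusted p = 0.131). Atp6v1a, the catalytic subunit, whose promoter stretch is given above, was at 12.2, 8.12 and 23.4 FPKM in KO ovx, at 11.4, 10.4 and 25.4 in WT E2 and at 2.97, 4.33 and 5.04 in WT ovx. Its call with Tsc2 loss (1.51, adjusted p = 0.0483) was lost in 5 of 6 fits that left out a library (adjusted p up to 0.213).

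The lysosomal hydrolases Neu1 and Hexa were higher in every KO ovx library than in any WT E2 library. Neu1, a sialidase, was at 18.8, 16 and 31.9 FPKM in KO ovx, at 10.6, 9.07 and 15.2 in WT E2 and at 2.10, 2.53 and 2.47 in WT ovx. The difference of 0.85 ± 0.31 just missed the threshold (adjusted p = 0.0516). Hexa, the α chain of β-hexosaminidase, was at 21.4, 19.7 and 26.8 FPKM in KO ovx and 10.8, 13.2 and 11.5 in WT E2. Its direct difference was 0.88 (adjusted p = 0.0162, and 0.0504 without WT E2 replicate 1). Ctsa, a serine carboxypeptidase, was at 14.6, 15.8 and 13.6 FPKM in KO ovx, at 16.4, 15.2 and 16.1 in WT E2 and at 6.94, 7.59 and 7.17 in WT ovx. Its rise was called with estradiol (1.04, adjusted p = 0.00727) and not with Tsc2 loss (0.93, adjusted p = 0.0672). Ctsd, an aspartyl protease, was called in neither.

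Of this list, Rragd, Atp6v0d2, Tpp1 and Mcoln1 were called with Tsc2 loss and not with estradiol. The calls of the peptidase Tpp1 and the calcium channel Mcoln1 (adjusted p = 0.015 and 0.0357) were lost in 2 and 5 of 6 fits that left out a library, and neither was called in the direct comparison. Rragd, the RagD GTPase, was at 8.49, 5.45 and 12.3 FPKM in KO ovx, at 0.224, 0.211 and 0.375 in WT E2 and at 0.281, 0.455 and 0.337 in WT ovx. KO ovx alone stood apart, by 2.88 ± 0.21 over WT E2 (adjusted p = 3.36e-06) and 2.79 ± 0.21 over WT ovx (adjusted p = 5.41e-06). Atp6v0d2, a tissue-restricted V-ATPase subunit known from osteoclasts and kidney, read 14, 7.79 and 30.4 FPKM in KO ovx and 0.0774, 0.314 and 0.255 in WT E2 (3.73 ± 0.37, adjusted p = 2.24e-05). Flcn, folliculin, was at 8.73, 7.59 and 7.42 FPKM in KO ovx, at 3.22, 2.56 and 3.04 in WT E2 and at 5.56, 4.55 and 4.44 in WT ovx. It was higher in KO ovx than in WT E2 by 1.18 (adjusted p = 0.000482) and missed the threshold against WT ovx (0.61, adjusted p = 0.0604). Gpnmb, a glycoprotein often raised with MiT/TFE activity, was at 4.26, 4.92 and 1.08 FPKM in KO ovx and 1.00, 2.14 and 2.23 in WT E2, with no call in any of the 3 comparisons.

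**Figure D2:**
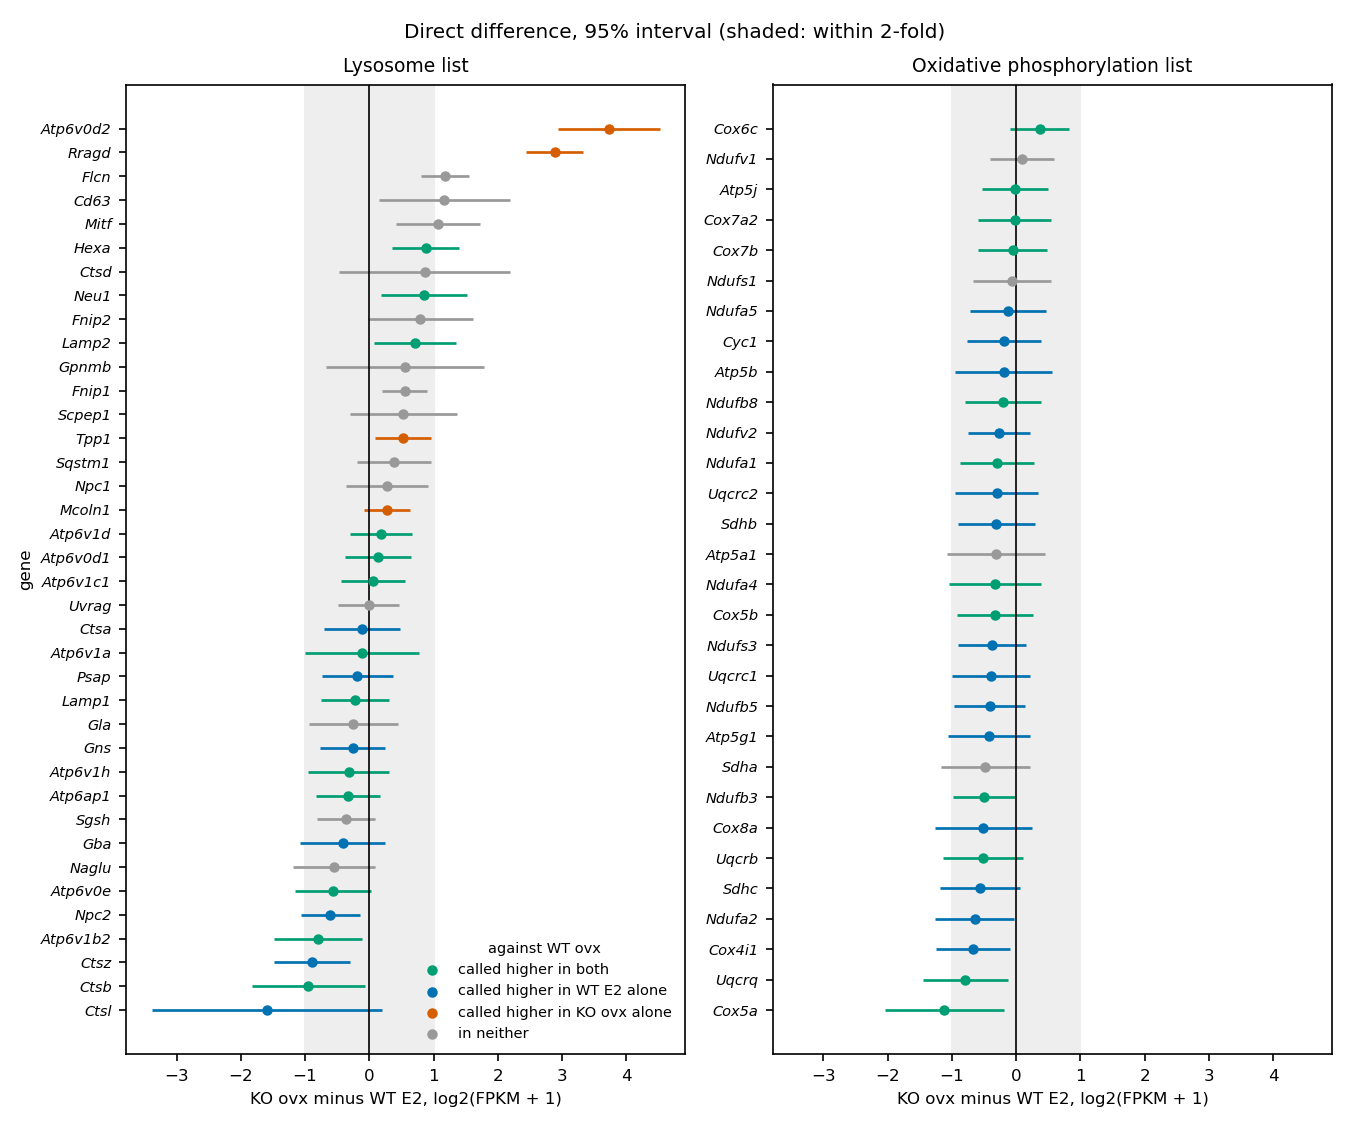
Difference KO ovx minus WT E2 on the log2(FPKM + 1) scale, with its 95% interval, for 38 of the 39 genes of the lysosome list and 30 of the oxidative phosphorylation list; the shaded band is within 2-fold, and colours give the calls against WT ovx. Lysosome genes spread to both sides of 0, from Ctsl at -1.60 to Atp6v0d2 at 3.73, and 28 of 30 oxidative phosphorylation genes lie below 0 without a call.

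Nuclear genes of oxidative phosphorylation were higher in both conditions. Of 30 tested, 26 rose with estradiol (median 1.22) and 12 with Tsc2 loss (median 0.85), and none fell in either. None was called in the direct comparison, whose median was -0.32 beside -0.13 for all genes. The interval lay within 2-fold for 19 of 30, not far from the 51.6% of all genes. These direct results rest on KO ovx replicate 4: without it, 11 were lower in KO ovx and none higher, and 8 intervals lay within 2-fold. Under quantile normalization the direct median was 0.28 with 7 members higher, and 7 in place of 26 rose with estradiol. The 12 that rose with Tsc2 loss were 8 without KO ovx replicate 1, 3 without KO ovx replicate 4, and 0, 8 and 4 without WT ovx replicates 1, 2 and 3. Cox5a, a subunit of cytochrome c oxidase, was at 33.2, 26.5 and 84.9 FPKM in KO ovx, at 86.7, 104 and 88.8 in WT E2 and at 6.74, 10.7 and 10.8 in WT ovx. KO ovx lay between the 2 other groups, below every WT E2 library, with a direct difference of -1.12 that was not called (adjusted p = 0.0633). Atp5j, a coupling factor of ATP synthase, was at 56.1, 49.1 and 88.4 FPKM in KO ovx and at 66.6, 57.3 and 66.1 in WT E2. The groups overlapped and the interval of the difference ran from -0.53 to 0.50.

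**Figure D3:**
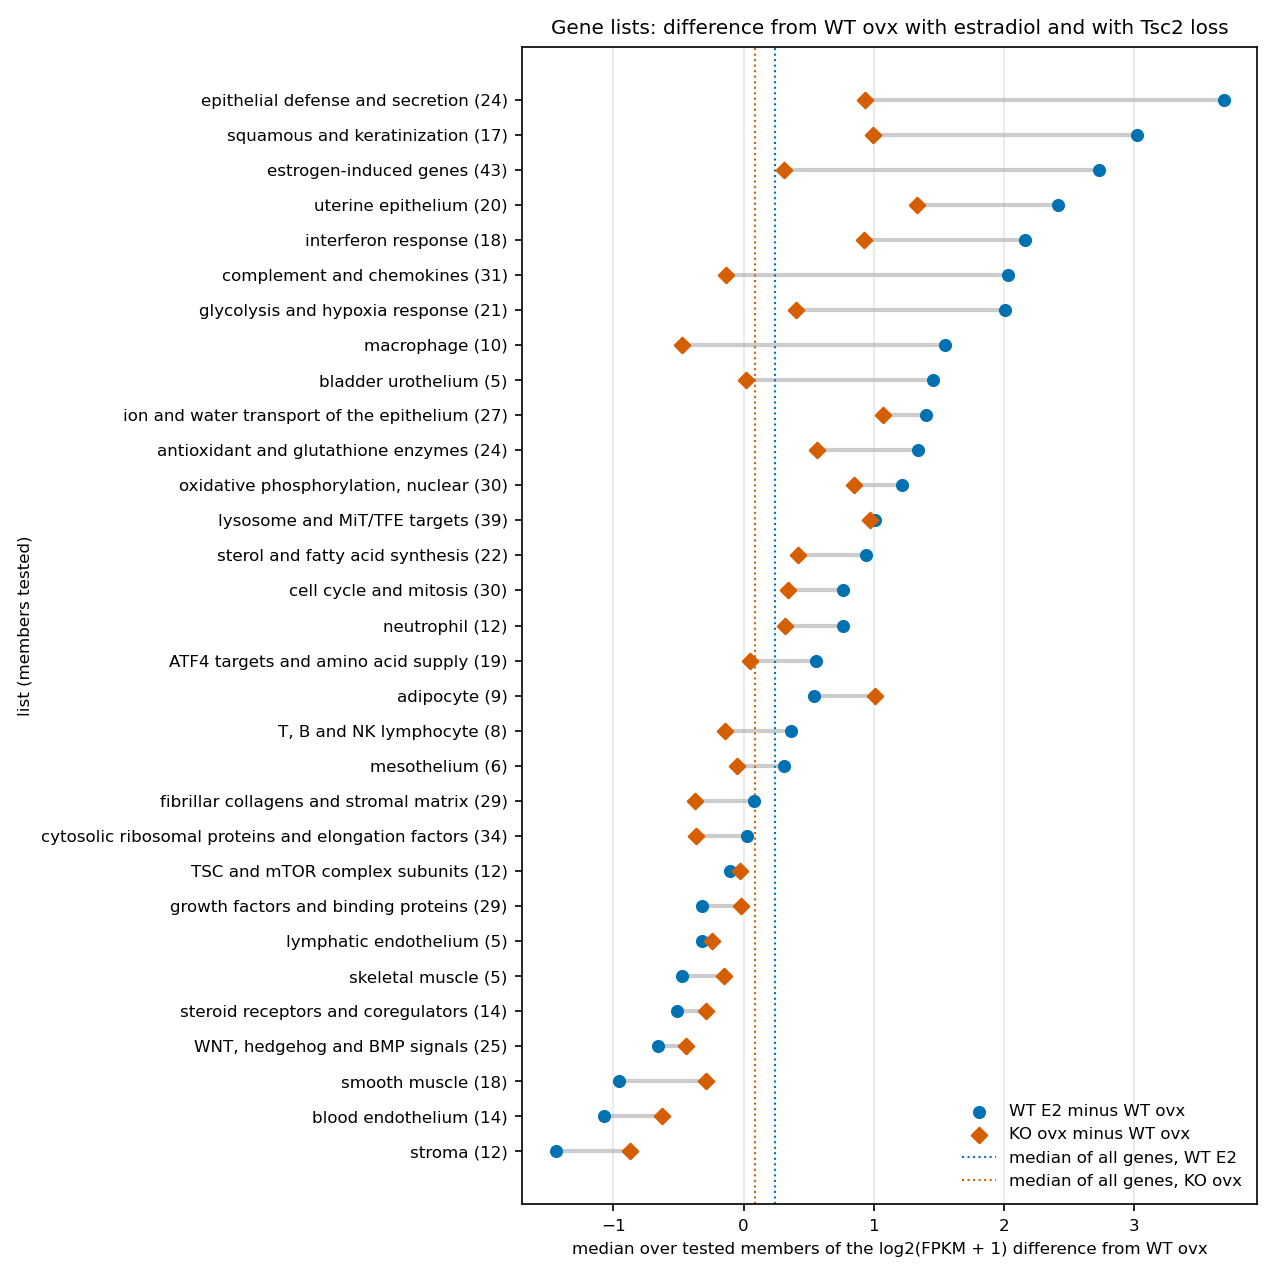
Median difference from WT ovx over the tested members of each gene list, on the log2(FPKM + 1) scale, for WT E2 (circles) and KO ovx (diamonds), with the number of members tested and dotted lines at the medians of all genes. The lysosome list has medians of 1.01 and 0.97 (0.25 and 0.75 under quantile normalization, which is not plotted), and the estrogen-induced list 2.73 and 0.31 (2.54 and 0.26).

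Another group of genes was higher in KO ovx than in both WT ovx and WT E2, and 42 qualified by the naming rule, ion and solute transporters among them. Fxyd2, the γ subunit of the sodium pump, was at 71.4, 69.4 and 297 FPKM in KO ovx, at 1.20, 1.99 and 0.607 in WT E2 and at 0.846, 1.58 and 0.857 in WT ovx. KO ovx was above every other library, with a direct difference of 5.71 ± 0.50 (adjusted p = 7.71e-06). Car4, a membrane-bound carbonic anhydrase, read 18.7, 15.8 and 60.9 FPKM in KO ovx and 0.110, 0.0895 and 0.145 in WT E2, below the 1.20, 1.10 and 0.872 of WT ovx. Its direct difference was 4.62 ± 0.38 (adjusted p = 6.5e-06), and the lower level with estradiol was not called (adjusted p = 0.0677). Slc5a11, a sodium-coupled inositol transporter, was at 18.3, 13.9 and 23.0 FPKM in KO ovx and under 0.16 FPKM in every WT E2 and WT ovx library. The difference from WT E2 was 4.24 ± 0.54 (adjusted p = 0.000133).

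Enzymes were in that group as well. Cyp26a1, which breaks down retinoic acid, was at 11.4, 12.2 and 75.8 FPKM in KO ovx and under 0.2 FPKM in each library of the other groups, with a direct difference of 4.51 ± 0.52 (adjusted p = 6.7e-05). Cyp4a12a, a fatty acid hydroxylase, read 8.69, 19.7 and 6.01 FPKM in KO ovx and 0.109, 0.107 and 0.0290 in WT E2. Here replicate 2 was the highest of the KO ovx libraries, unlike for the genes above. Cyp4a12b gave almost the same values, and since the 2 genes are nearly identical the reads cannot be assigned to one of them. Efhd1, a mitochondrial calcium-binding protein, and Pllp, a myelin and epithelial membrane protein, were higher in KO ovx than in WT E2 by 3.51 ± 0.43 (adjusted p = 0.000104) and 3.38 ± 0.43 (adjusted p = 0.000133). No gene qualified as lower in KO ovx than in both other groups, although 2 met the calls before the conditions on level and name were applied.

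The list of epithelial ion and water transport was called in both directions. Its members Fxyd2, Car4, Slc5a11 and Pdzk1ip1 had already been named by the rule for their differences, so their calls here are no separate support. Of 27 tested, 5 were higher in KO ovx than in WT E2 (Fxyd2, Car4, Slc5a11, Scnn1a and Scnn1b) and 8 were lower (Aqp5, Aqp8, Cftr, Slc26a4, Slc9a3r1, Clca1, Clca2 and Kcnn4). Of all genes, 11.7% were higher and 18.3% lower. In all, 13 rose with estradiol and 7 with Tsc2 loss (4 without WT ovx replicate 1), with Pdzk1ip1 among those that rose in both. Of all genes, 32.3% rose with estradiol and 4.63% with Tsc2 loss. Aqp5, a water channel of secretory glands, was at 0.276, 0.894 and 7.27 FPKM in KO ovx, at 84.7, 60.1 and 48.4 in WT E2 and at 0.288, 0.102 and 0.507 in WT ovx. WT E2 was above both, and the direct difference was -4.55 ± 1.03 (adjusted p = 0.00546). Scnn1b, the β subunit of the epithelial sodium channel, was at 12.1, 17.8 and 2.29 FPKM in KO ovx, at 0.698, 0.732 and 1.41 in WT E2 and at 0.639, 0.549 and 0.574 in WT ovx. Scnn1b was thus higher in KO ovx, most in replicates 1 and 2, by 2.28 ± 0.56 (adjusted p = 0.00817), and its call over WT ovx was lost in 4 of 6 fits that left out a library (adjusted p up to 0.0807).

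Genes that estradiol lowered and Tsc2 loss did not lower were led by Tgfbi, a secreted matrix protein. It was at 293, 155 and 315 FPKM in KO ovx, at 3.57, 9.86 and 9.59 in WT E2 and at 49.8, 73.1 and 44.6 in WT ovx. The 3 groups did not overlap, with KO ovx above WT ovx and WT E2 below it. The direct difference was 4.92 ± 0.64 (adjusted p = 0.000158), the fall with estradiol was called (-2.78 ± 0.64, adjusted p = 0.0029) and the higher level with Tsc2 loss was not (2.13 ± 0.64, adjusted p = 0.0663). Rbm24, an RNA-binding splicing factor of muscle, read 18.4, 16.7 and 11 FPKM in KO ovx, 0.917, 0.450 and 0.872 in WT E2 and 12.0, 9.58 and 11.9 in WT ovx. KO ovx and WT ovx overlapped, and WT E2 was lower than both (direct difference 3.21 ± 0.34, adjusted p = 3.73e-05). Pik3ip1, a negative regulator of PI3-kinase, was at 25.5, 19.1 and 29.5 FPKM in KO ovx, at 2.60, 2.60 and 1.72 in WT E2 and at 9.70, 7.92 and 7.42 in WT ovx. It was higher in KO ovx than in WT E2 by 2.95 ± 0.36 (adjusted p = 0.000105). Its call over WT ovx (1.45 ± 0.36, adjusted p = 0.0343) was lost in 5 of 6 fits that left out a library (adjusted p up to 0.125).

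Only Abca4, a lipid transporter best known from photoreceptors, qualified by rule as moved in opposite directions by the 2 conditions. It was at 5.46, 3.35 and 8.04 FPKM in KO ovx, at 0.143, 0.141 and 0.175 in WT E2 and at 1.23, 1.07 and 1.25 in WT ovx. No library of one group overlapped another group. It rose by 1.54 ± 0.20 with Tsc2 loss (adjusted p = 0.000432) and fell by 0.92 with estradiol (SE 0.20, adjusted p = 0.00186). Wnt11, a noncanonical WNT ligand, had the same order, at 9.30, 5.60 and 9.36 FPKM in KO ovx, 0.0138, 0.0446 and 0.0304 in WT E2 and 1.25, 2.00 and 2.04 in WT ovx. Its direct difference was 3.11 ± 0.34 (adjusted p = 4.87e-05), while its rise over WT ovx (1.70, adjusted p = 0.0114) lost its call without WT ovx replicate 1 (adjusted p = 0.0789). Over all genes, 20 were called lower with estradiol and higher in KO ovx against the same WT ovx libraries, and 1 the other way round.

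Signals between epithelium and stroma were called in both directions. In the list of 25 WNT, hedgehog and BMP genes, 7 were higher in KO ovx than in WT E2 and 5 lower, with a median of 0.62. Over all genes 11.7% were higher and 18.3% lower, so the lower count is near the share of all genes. The lower ones were ligands and inhibitors (Wnt5a, Wnt7a, Wnt7b, Dkk2 and Inhbb), and the higher ones Wnt11, Dkk3, Axin2, Ihh, Ptch1, Gli1 and Msx1. Wnt7b was at 0.0717, 0.0708 and 0.268 FPKM in KO ovx and at 9.91, 6.84 and 17.0 in WT E2, with WT ovx at 0.222, 0.607 and 0.858. Only WT E2 stood high, with a difference of -3.35 ± 0.46 (adjusted p = 0.000235). Ihh, the epithelial hedgehog ligand, was at 3.61, 2.93 and 8.43 FPKM in KO ovx and at 0.162, 0.0244 and 0.0440 in WT E2 (2.37 ± 0.61, adjusted p = 0.0106). Gli1, the hedgehog effector read in stroma, was at 10.4, 17.5 and 1.22 FPKM in KO ovx, at 0.320, 0.191 and 0.0617 in WT E2 and at 18.2, 18.2 and 17.1 in WT ovx. KO ovx replicate 4 was near WT E2 and the other KO ovx libraries near WT ovx. The 7 higher genes were 4 without KO ovx replicate 1, WT E2 replicate 2 or WT E2 replicate 5, and the 5 lower genes were 3 without KO ovx replicate 2 or 4 or WT E2 replicate 5 and 2 without WT E2 replicate 1.

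Of 29 growth factors, receptors and binding proteins, 8 were higher in KO ovx than in WT E2 and 4 lower (2 without WT E2 replicate 2). Among all genes 11.7% were higher and 18.3% lower, so the lower count is no more than that share. Fgfr2, the epithelial receptor for stromal FGFs, was at 20.7, 18.3 and 23.1 FPKM in KO ovx, at 4.48, 3.21 and 1.67 in WT E2 and at 10.4, 9.86 and 10.4 in WT ovx. The groups did not overlap, and the direct difference was 2.45 ± 0.46 (adjusted p = 0.002). Pgf, placental growth factor, read 6.36, 3.56 and 9.94 FPKM in KO ovx, 0.828, 0.522 and 0.308 in WT E2 and 0.683, 0.604 and 0.567 in WT ovx. It rose with Tsc2 loss alone, by 2.15 ± 0.35 over WT ovx (adjusted p = 0.00287). Ctgf, a matricellular protein, was higher with estradiol, at 43.9, 26 and 17.9 FPKM against 8.18, 6.67 and 4.63 in KO ovx (-1.95 ± 0.42, adjusted p = 0.00431). Igf1, the stromal mediator of estrogen-driven growth, was at 2.79, 2.66 and 1.67 FPKM in KO ovx and 2.51, 1.88 and 1.22 in WT E2, with no call (interval -0.74 to 1.22).

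Of the receptors, Esr1, which binds estradiol, was at 9.34, 7.54 and 12.5 FPKM in KO ovx, at 4.95, 2.99 and 10 in WT E2 and at 12.4, 15.1 and 13.8 in WT ovx. Estradiol lowered it (-1.20 ± 0.33, adjusted p = 0.00786), and the direct difference of 0.73 ± 0.33 was not called (adjusted p = 0.101). In the list of 14 receptors and coregulators, 7 fell with estradiol, beside 15.2% of all genes. Under median-ratio scaling 11 fell, beside 3469 of all 13898 genes. In the direct comparison 4 were higher in KO ovx and 1 lower, or 2 to 6 higher and 0 to 2 lower when 1 library was left out. Nr2f2, the stromal receptor COUP-TFII, was at 15.3, 13.5 and 9.41 FPKM in KO ovx and 5.86, 4.40 and 5.93 in WT E2 (1.09 ± 0.25, adjusted p = 0.00539).

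Of 12 tested subunits of the TSC and mTOR complexes, 1 was higher and 2 lower in KO ovx than in WT E2, shares close to those of all genes (11.7% and 18.3%). None was called in KO ovx against WT ovx, and 5 rose and 2 fell with estradiol, or 3 and 5 under median-ratio scaling and 2 and 5 under quantile normalization. The 5 were 2 without WT E2 replicate 5 or WT ovx replicate 1 and 3 without WT ovx replicate 2. Tsc1, the partner of TSC2, was at 2.41, 2.33 and 1.96 FPKM in KO ovx and at 1.25, 0.890 and 1.56 in WT E2 (0.54 ± 0.13, adjusted p = 0.00763). Rheb, the GTPase upstream of mTORC1, was at 8.35, 7.74 and 11 FPKM in KO ovx and at 15.7, 12.6 and 22.8 in WT E2 (-0.82 ± 0.24, adjusted p = 0.0211), a call lost without KO ovx replicate 1 or 2 or WT E2 replicate 5. These are transcript levels and say nothing of kinase activity.

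Of 30 cell cycle genes, 12 rose with estradiol and none with Tsc2 loss, and in the direct comparison 1 was higher and 2 lower, or 6 lower without KO ovx replicate 4. Beside 32.3% of all genes that rose with estradiol, and 11.7% and 18.3% called in the direct comparison, these counts do not set the list apart. The 12 were 8 without WT E2 replicate 1, 4 without WT E2 replicate 5 and 5, 6 and 7 without WT ovx replicates 1, 2 and 3. Mki67, the proliferation antigen, read 0.882, 0.729 and 2.22 FPKM in KO ovx, 1.18, 0.869 and 2.64 in WT E2 and 0.680, 0.515 and 0.465 in WT ovx, with no call (direct interval -1.28 to 0.95). Mad2l1, a spindle checkpoint protein and 1 of the 2 lower genes, was at 1.18, 1.05 and 3.00 FPKM in KO ovx and 9.70, 5.86 and 13.7 in WT E2 (-1.97 ± 0.38, adjusted p = 0.00227). Ccnd1, cyclin D1, was at 7.28, 5.19 and 19.1 FPKM in KO ovx and at 4.21, 2.29 and 3.30 in WT E2, and its call (1.27 ± 0.43, adjusted p = 0.0384) was lost in 4 of 6 fits that left out a library (adjusted p up to 0.142).

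Markers of the tissue's own cell types moved between the groups as well. The 20 epithelial markers summed to 508, 369 and 1140 FPKM in KO ovx, to 1620, 1260 and 2020 in WT E2 and to 151, 248 and 268 in WT ovx, so that both conditions lay above the reference and all KO ovx libraries below all WT E2 libraries. In the direct comparison 8 of 20 epithelial markers were lower in KO ovx and 1 higher, but 2 and 1 were lower without KO ovx replicate 1 and replicate 2, 12 without replicate 4, and 4 and 2 without WT E2 replicates 1 and 5. Krt7, a keratin of simple epithelium, was at 17.7, 13.9 and 49.7 FPKM in KO ovx and at 242, 130 and 270 in WT E2 (-3.08 ± 0.76, adjusted p = 0.00827). The 12 stromal markers summed to 375, 427 and 152 FPKM in KO ovx, 155 to 218 in WT E2 and 544 to 643 in WT ovx. The 18 smooth muscle markers summed to 1430 and 1660 FPKM in KO ovx replicates 1 and 2 and to 457 in replicate 4, to 401 in WT E2 replicate 5 and to 1190 or more in the other WT E2 libraries. The 10 adipocyte markers summed to 17.5, 18.5 and 157 FPKM in KO ovx. By these sums, KO ovx replicate 4 had more epithelial, neutrophil and adipocyte signal and less muscle and stromal signal than its group. Single markers did not all follow their sum. Among the KO ovx libraries, the neutrophil marker Ly6g and the adipocyte marker Plin4 were lowest in replicate 4. The part of the shifts in marker sums in the gene results above was not tested.

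**Figure D4:**
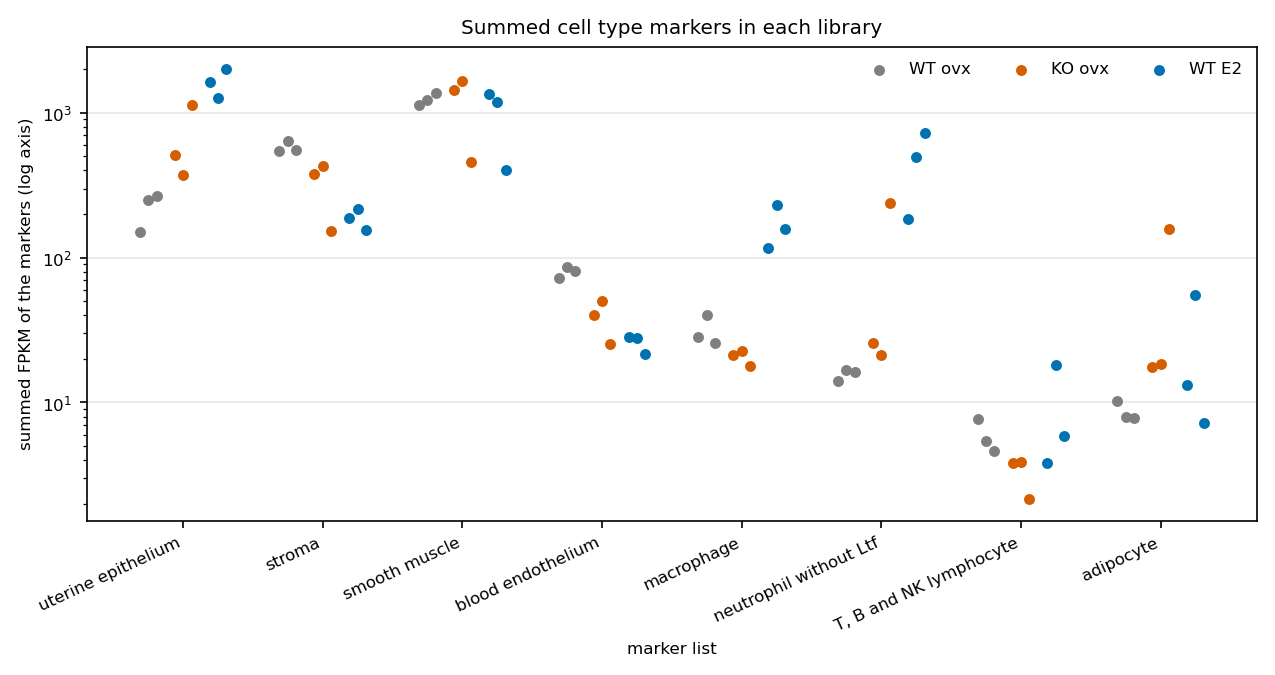
Summed FPKM of the markers of 8 cell types in each library (neutrophils without Ltf), on a log axis, for WT ovx, KO ovx and WT E2. Macrophage sums lie between 17.9 and 22.6 FPKM in KO ovx and between 117 and 230 in WT E2, and KO ovx replicate 4, plotted last in its group, is set apart for epithelium, stroma, smooth muscle, neutrophils and adipocytes.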

How the data were processed

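Single-end, stranded messenger RNA libraries of uterine cross sections were made per the labels' protocols. The deposited values are FPKM per gene and library, and the submitters' processing notes list Cufflinks 2.0.2 and Cuffdiff. Aligner, build and annotation are not given in the sources used here. Since FPKM holds no counts, the depth behind a value is unknown and no counting interval is given. Gene positions in the table did not match the reference used for promoters (GRCm38.p6) and are not printed.

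Libraries were grouped by their labels. Genes with at least 1 FPKM in 3 of 18 libraries were kept, log2(FPKM + 1) was taken, and 6 group means over 18 libraries were fitted with limma 3.58.1 in R 4.3.3 (moderated variances with a mean trend, two-sided, Benjamini-Hochberg adjustment over all 13898 genes, threshold 0.05), so that all groups share 1 estimate of the spread. The fit was tested on simulated data. For Tsc2 the exact permutation test of scipy 1.17.1 was used. Sums, lists, motif searches and figures were made in Python 3.11.15 with pandas 2.3.3.

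The naming rule took up to 10 genes per class and direction: called the same way against WT ovx in both conditions, called with estradiol with KO ovx short of it, called in KO ovx against both other groups, or called in opposite directions. Each call had to hold when any 1 of the 6 compared libraries was left out, with no overlap of the groups, a mean of at least 5 FPKM in 1 group and a symbol that is no predicted or clone name. Up to 2 called members of each list and direction, and fixed genes of known role, were added without these conditions. Atp5j, Atp6v1a, Atp6v1d, C2, Cd55, Cox5a, Ctsa, Ctsd, Flcn, Hexa, Ldha, Padi2 and Scnn1b lie outside the rule and were chosen after their values were seen. A direct difference printed for a gene named as shared was not part of that condition. Members, lists, rules and tests were chosen with earlier results of these data known. Alternatives were 9 libraries only, looser and stricter filters on low values, another pseudocount, median-ratio and quantile scaling, the library set as a term or alone, a replicate block, and each library left out in turn. The sets were found from the values and are no label of the study. Some genes are not reported here.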

Additional observations from a re-analysis of the deposited data

How the results depend on the processing

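The direct comparison kept its direction of more lower than higher genes in all settings except median-ratio scaling (2434 higher and 2334 lower) and quantile normalization (2668 higher and 1972 lower). The number of genes higher in KO ovx than in WT E2 was 1632, and 525 with a filter of 5 FPKM, 961 with the library set as a term, 2668 under quantile normalization and 483 within 1 set, and it ranged from 901 to 1809 when 1 library was left out. The number lower was 2538, and 1674 within 1 set, with a range of 1246 to 3427. For WT E2 against WT ovx, 6599 genes were called, and 4042 with the filter of 5 FPKM, with a range of 4889 to 6864 when 1 library was left out. For KO ovx against WT ovx, 753 were called, and 429 with the set as a term, 1978 under quantile normalization, 399 with a replicate block and 152 within 1 set, with a range of 149 to 912. With the replicate block the direct counts were 1751 higher and 2755 lower. Only 2 replicate numbers are shared by KO ovx and WT E2, and the correlations of their deviations were 0.012 and 0.079. For KO ovx and WT ovx, where the block lowered the count, they were 0.339 and 0.078. For WT E2 and WT ovx, where the block also lowered the count, from 6599 to 5749, they were 0.094 and -0.013. The samples were taken to share only a number, which the 0.339 of replicate 1 leaves unsettled. Among the 216 called differences of the 115 named genes, 2914 of 3227 re-tests kept the call, 311 lost it and 2 reversed, and 68 of the losses were within 1 set. Under quantile normalization the difference WT E2 minus WT ovx was -0.28 for Ctsz, -0.26 for Pabpc1 and -0.30 for Rpl18, against 0.80, 0.89 and 0.58 otherwise, the last of which was not called. The cause of these changes was not tested. FPKM without counts does not tell how precise a low value is, so small differences of genes near 1 FPKM cannot be weighed by depth.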

Other observations

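Of 22 tested genes of sterol and fatty acid synthesis, 10 rose with estradiol, none was called with Tsc2 loss, and 1 was higher and 2 lower in KO ovx than in WT E2. Of 19 ATF4 targets and amino acid transporters, 7 rose with estradiol, none was called with Tsc2 loss, and 1 was higher and 3 lower in the direct comparison (6 lower without KO ovx replicate 4), shares near or below the 32.3%, 11.7% and 18.3% of all genes. Of 34 ribosomal protein and elongation factor genes, 7 were lower in KO ovx than in WT E2 with a median of -0.41, but 26 were lower without KO ovx replicate 4, 1 without KO ovx replicate 1 or 2, and under quantile normalization the median was 0.34 with 10 higher.

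LOC100504272 is listed at 0 in all 3 KO ovx libraries and at 2390 to 5310 FPKM in the WT ovx and WT E2 libraries. Rn18s, the 18S ribosomal RNA gene, is listed at 0 in WT E2 replicate 2.

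A few single genes stood between the groups or apart in 1 library. Prap1, a secreted epithelial protein, was at 5.26, 3.38 and 23.0 FPKM in KO ovx, at 85.2, 20.7 and 9.11 in WT E2 and at 0.207, 0.319 and 0.228 in WT ovx. Both groups lay above WT ovx in every library, without a call for KO ovx against WT ovx (2.80, adjusted p = 0.187). Ovgp1, the oviductal glycoprotein, was at 159 FPKM in WT E2 replicate 1.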
